A study of Rattus norvegicus with 12 samples.

Results

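The genes described here are the 171 of 9721 genes in the deposited rat expression table whose Gene Ontology process text contains the words RNA splicing. Of 182 such genes, 6 were left out because they also carry a term for DNA repair, DNA replication, ribosome biogenesis or rRNA processing, and 5 because they are Ptbp1, Ptbp2, Ptbp3 or zinc finger genes of the Zfp series. The RNA came from cultured midbrain astrocytes of newborn Sprague-Dawley rats, primary cells that were wild type in every group and grown in DMEM with 10% fetal bovine serum. There were 12 libraries in 4 groups of 3, a control group at 0 h and groups exposed for 1.5, 3 and 6 h to 10 µM PT109B, a small molecule known here by its code name. Whether the 3 libraries of a group stem from different cultures is not stated, so the p-values cover the spread among these libraries alone, and that spread may be technical.

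Splicing removes introns from pre-mRNA. The spliceosome is built on each intron in steps: the U1 particle pairs with the start of the intron, branch point factors and the U2 particle mark its end, the tri-snRNP joins, and the Prp19 complex and later factors carry the particle through catalysis. Which exons are kept depends on SR proteins, which mostly favour the exon they bind, on hnRNPs, which often oppose them, and on regulators of particular cell types. SR proteins work in a phosphorylated form and collect in nuclear speckles, and kinases of the CLK, SRPK and DYRK families and Prpf4b phosphorylate them or their partners. In glia such regulators include Qk (quaking), known for its part in myelin and astrocyte transcripts.

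By these role lists, 109 of the 171 genes had a place in the machinery and 62 were in none of the lists. The set also holds genes that carry a splicing term although they are known for other work, such as the chaperone Hspa8, the amino acid transporter Slc38a2, the lectin Lgals3 and the muscle transcription factor Myod1. Per length, the mean FPKM over 12 libraries ran from 0.408 (Myod1) to 1217 (Hspa8), with a median of 17.0. Among dedicated splicing factors the highest FPKM belonged to Hnrnpa2b1 (227), Hnrnpa1 (227), Hnrnpl (132) and Hnrnpa3 (131), and among the lowest were the neural factors Srrm4 (0.460), Celf5 (0.510) and Rbfox1 (1.15).

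Total counts ran from 9368972 to 12498050 per library, and the 171 genes held 2.07% to 2.67% of them. The astrocyte label was checked on 8 tested markers, among them Gfap at 2180 ± 457 CPM (counts relative to scaled library size) and Aqp4 at 1543 ± 514 CPM in control (SD, n = 3). In each treated group 1 library stood apart, namely replicate 3 at 1.5 h, replicate 3 at 3 h and replicate 1 at 6 h. Their log2 levels correlated with the other 2 libraries of their group at r of 0.910 to 0.954 across genes, whereas the other 2 correlated with each other at 0.994 to 0.995. The libraries standing apart at 3 h and 6 h resembled each other in how they deviated from their group means (r = 0.794 across genes). The library standing apart at 1.5 h deviated less alike, at r of 0.224 and 0.256 with these 2. What these libraries share was not tested. Genes are not independent replicates, so these r values only describe the libraries. Markers of other cells and of mitosis moved with that split. Summed over 22 of 22 microglial markers, the level was 3266 to 3962 CPM in control, 423, 412 and 4198 CPM at 1.5 h, 3141 to 3650 CPM at 3 h and 2812 to 3463 CPM at 6 h. Summed over 25 of 25 mitosis genes, it was 2054 to 2866 CPM in control, 1964 to 2467 CPM at 1.5 h, 235, 206 and 1605 CPM at 3 h and 1547, 182 and 203 CPM at 6 h. Over 10 of 10 fibroblast and meningeal markers, the sum was 1466 to 1899 CPM in control and 6117, 6409 and 1555 CPM at 1.5 h. Over 12 of 15 neuron markers it was 480 to 569 CPM in control, 1474, 1336 and 550 CPM at 3 h and 455, 1176 and 1132 CPM at 6 h. Over 11 of 12 markers of the oligodendrocyte lineage it was 817 to 851 CPM in control, 968, 1028 and 775 CPM at 1.5 h, 1220.5, 1252 and 731 CPM at 3 h and 745, 1061 and 1074 CPM at 6 h. The 8 astrocyte markers summed to 7178, 6855 and 10692 CPM in control, 7457, 7029 and 11322 CPM at 1.5 h, 7379, 7787 and 9803 CPM at 3 h and 6986, 5493 and 6156 CPM at 6 h, highest in replicate 3 except at 6 h. None of these markers was at 0 in every library. The part of these cells and of cycling in the results was not tested. In RNA from whole cultures, fewer cells of a type and less RNA per cell cannot be told apart.

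A gene was called changed where the adjusted p of edgeR's quasi-likelihood test (Benjamini-Hochberg over 9491 genes) was below 0.05, and changes are log2 fold changes ± SE. All 171 splicing genes passed the filter on low counts. At 1.5 h against control 3 of them were called higher and 3 lower, 3.51% in all, beside 3.32% of all genes tested (1.95% higher and 1.37% lower). At 3 h 16 were called higher and 31 lower. That was 9.36% higher and 18.1% lower, beside 13.5% higher and 7.94% lower among all genes tested (21.4% either way). At 6 h 30 were called higher and 32 lower, or 17.5% and 18.7%, beside 18.7% higher and 11.8% lower among all genes (30.5% either way). The share called lower thus stood above the background at 3 h and 6 h, and the share called higher did not. The median log2 fold change of the 171 genes was 0.04, -0.07 and -0.08 at 1.5, 3 and 6 h, beside -0.01, -0.03 and -0.02 over all genes tested. Most changes were small: 12 genes at 3 h and 14 at 6 h were both called and at least 2-fold different, which was also so for 8.11% and 11.6% of all genes.

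**Figure D1:**
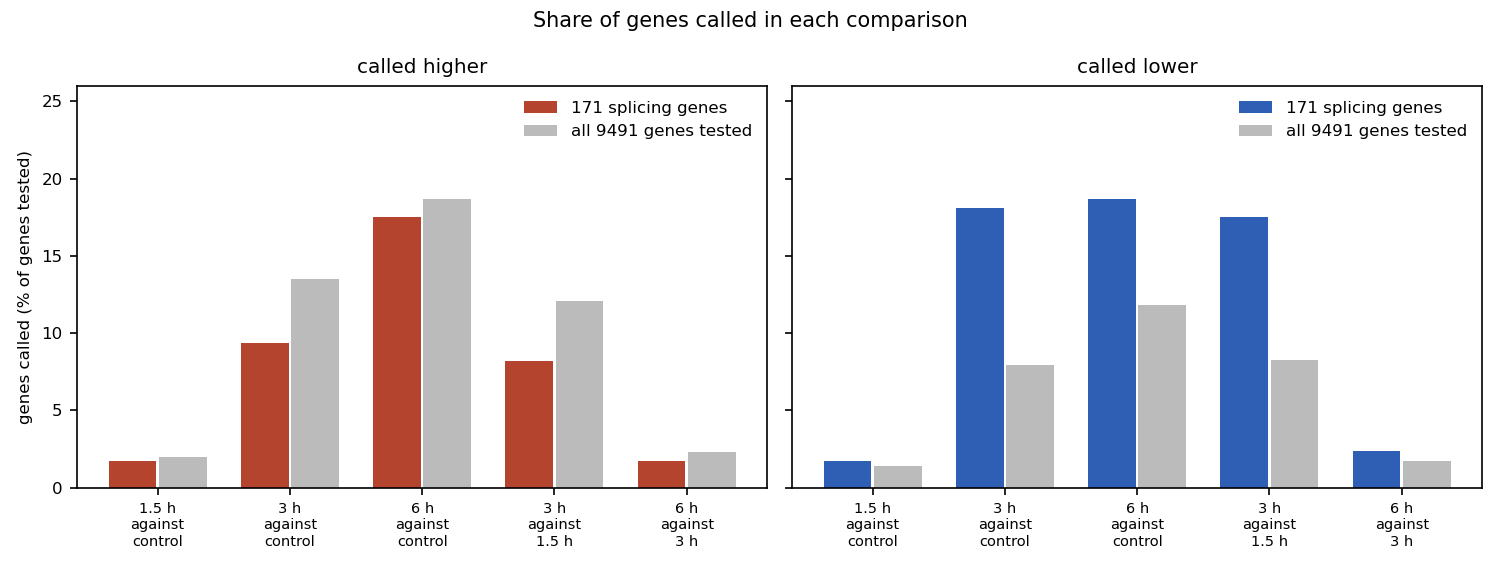
Share of genes called higher (left) and lower (right) in each of 5 comparisons, in percent of the genes tested. Coloured bars stand for the 171 splicing genes and grey bars for all 9491 genes tested. At 3 h against control 18.1% of splicing genes were called lower, beside 7.94% of all genes.

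The split between higher and lower depends on the scaling. With libraries scaled by the depth that count and FPKM give together, 8 splicing genes were called higher and 59 lower at 3 h, and 22 higher and 48 lower at 6 h, because that scaling moved the median of all genes to -0.31 at 3 h and -0.22 at 6 h. The shares called lower were then 34.5% and 28.1% of the splicing genes, beside 18.1% and 18.0% of all genes tested. Without the 3 libraries that stand apart, the counts were 51 higher and 28 lower at 1.5 h, 59 and 74 at 3 h, and 58 and 79 at 6 h. The shares called lower were 43.3% at 3 h and 46.2% at 6 h, beside 39.6% and 41.8% of all genes. The distance from the background was thus smaller at these times. The shares called higher were 34.5% and 33.9%, beside 31.4% and 33.3% of all genes, and no longer lay below the background. At 1.5 h 29.8% were called higher and 16.4% lower, beside 28.7% and 30.5% of all genes. With those libraries left out, all 6, 47 and 62 genes called with every library were called again with the same sign. Each called gene also lay on the called side of the control mean in each library of its group. Both checks use libraries whose values chose the genes, so they describe the calls and are not independent support for them. The median shift in the called direction was 0.75, 0.80 and 0.48 on the log2 scale in replicates 1, 2 and 3 at 3 h, and 0.52, 0.83 and 0.81 at 6 h, so the libraries standing apart at 3 h and 6 h showed the smaller shifts. At 1.5 h it was 0.85, 0.69 and 0.72 over the 6 called genes, and the library standing apart, replicate 3, lay between the other 2.

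Of the 171 genes, 77 were called at some time against control and 94 at none. There were 30 called at 3 h and 6 h but not at 1.5 h, another 30 at 6 h alone and 11 at 3 h alone. A further 4 were called at 1.5 h and 3 h, and Clasrp and Srsf5 at all 3 times. Such patterns were not counted over all genes, of which 3.32%, 21.4% and 30.5% were called at 1.5, 3 and 6 h. The 32 genes called at both 3 h and 6 h had the same sign at both, but these comparisons share their control libraries.

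More SR proteins, which bind exons and recruit the spliceosome, fell than rose at 3 h and 6 h. Of 14 tested, 1 rose and 5 fell at 3 h (median -0.35), and 2 rose and 6 fell at 6 h (median -0.15). The falls also outnumbered the rises at both times with 4 other scalings. Of all genes tested, 13.5% were called higher and 7.94% lower at 3 h, and 18.7% and 11.8% at 6 h. These shares are the background for each role below with the scaling used throughout. Srsf6 had 201, 190.4 and 172 CPM in control, 202, 198 and 176 CPM at 1.5 h, 148, 150.5 and 123 CPM at 3 h, and 78.4, 72.8 and 76.9 CPM at 6 h. Every 6 h library lay below every 3 h library, and the 1.5 h libraries overlapped those of control. Srsf6 fell by 0.42 ± 0.11 at 3 h (adjusted p = 0.0267, edgeR) and by 1.30 ± 0.11 at 6 h (adjusted p = 6.3e-05). Srsf3, which also acts in mRNA export, had 217, 213 and 178 CPM in control, 206, 199 and 183 CPM at 1.5 h, 127, 126 and 144 CPM at 3 h, and 118, 111 and 113 CPM at 6 h. It fell by 0.61 ± 0.11 at 3 h (adjusted p = 0.00376) and by 0.83 ± 0.11 at 6 h (adjusted p = 0.000485), with no overlap with control at either time and both calls kept in all 19 alternatives. Srsf1, the founding member of the family, had 354, 327 and 277 CPM in control, 375, 327 and 296 CPM at 1.5 h, 147, 147 and 207 CPM at 3 h, and 253, 139 and 141 CPM at 6 h. The high libraries at 3 h and 6 h are those that stand apart. Its fall of 0.93 ± 0.24 at 3 h (adjusted p = 0.0219) was lost without control replicate 1 or 2 or 3 h replicate 1 or 2 (adjusted p of 0.0658 to 0.0894). Its fall of 0.84 ± 0.24 at 6 h (adjusted p = 0.0230) was lost without control replicate 1 or 2 or 6 h replicate 2 or 3 (0.0642 to 0.0799). The 3 h call of Srsf6 was lost without control replicate 1 or 2 (0.0853 to 0.105).

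Pnn (pinin), a speckle protein that joins the exon junction complex, had 64.4, 56.6 and 60.6 CPM in control, 50.1, 51.8 and 44.5 CPM at 1.5 h, 25.6, 20.6 and 23.7 CPM at 3 h, and 28, 23.1 and 26.4 CPM at 6 h. It fell by 1.38 ± 0.13 at 3 h (adjusted p = 9.38e-05, edgeR) and by 1.23 ± 0.13 at 6 h (adjusted p = 0.000156). The library standing apart lay between the other 2 at 3 h. It was the highest of its group at 6 h, though below every control, and the lowest at 1.5 h. Thrap3, an SR-like protein of speckles that also acts in transcription, took another course. It had 371, 378 and 430.2 CPM in control, 388, 392 and 401 CPM at 1.5 h, 474, 435 and 321 CPM at 3 h, and 229, 259 and 239 CPM at 6 h. It was called only at 6 h, with a fall of 0.70 ± 0.15 (adjusted p = 0.00540). Srsf4 fell at 3 h (-0.51), a call lost without any 1 control or 3 h replicate 1 or 2 (adjusted p of 0.0759 to 0.146), and Srsf2 fell at 6 h (-0.65), while Scaf1, an SR-like protein that binds RNA polymerase II, rose by 0.54 ± 0.14 at 6 h (adjusted p = 0.0144). That call was lost without control replicate 1 or 3 or 6 h replicate 2 or 3 (adjusted p of 0.0513 to 0.0614). Srrm2, a large speckle scaffold, was not called, with 1213, 1159.8 and 647 CPM at 3 h against 714, 766 and 802 CPM in control.

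Srsf5 rose at all 3 times. It had 93.3, 93.0 and 101 CPM in control, 153, 156 and 144 CPM at 1.5 h, 205, 197 and 151 CPM at 3 h, and 150.3, 179 and 186 CPM at 6 h. All 9 treated libraries lay above all controls. The change was 0.66 ± 0.13 at 1.5 h (adjusted p = 0.0233, edgeR), 0.95 ± 0.13 at 3 h (0.000984) and 0.84 ± 0.13 at 6 h (0.00121). With the replicate number as a block the adjusted p at 1.5 h was 0.0574. The 1.5 h call was also lost without any 1 control replicate or 1.5 h replicate 1 or 2 (0.0767 to 0.116), whereas the 3 h and 6 h calls were kept in all 19 alternatives. The promoters of a rising and a falling SR protein gene are printed to let them be compared. They come from the RefSeq annotation of GRCr8, matched by symbol, and run from 250 bases before to 50 after the annotated start, 5′ to 3′ on the gene's strand. The promoter of Srsf5 lies on the plus strand at chr6:106336506-106336805 and that of Srsf3 on the plus strand at chr20:7093335-7093634. Capitals mark matches to the GC box GGGCGG in Srsf5 and to the E-box CACGTG in Srsf3, on either strand.
Srsf5: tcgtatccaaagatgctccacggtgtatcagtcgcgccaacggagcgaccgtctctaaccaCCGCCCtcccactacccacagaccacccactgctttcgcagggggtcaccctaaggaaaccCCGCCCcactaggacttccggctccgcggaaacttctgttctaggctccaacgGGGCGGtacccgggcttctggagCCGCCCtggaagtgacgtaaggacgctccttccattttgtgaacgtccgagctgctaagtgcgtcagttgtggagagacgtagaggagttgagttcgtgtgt
Srsf3: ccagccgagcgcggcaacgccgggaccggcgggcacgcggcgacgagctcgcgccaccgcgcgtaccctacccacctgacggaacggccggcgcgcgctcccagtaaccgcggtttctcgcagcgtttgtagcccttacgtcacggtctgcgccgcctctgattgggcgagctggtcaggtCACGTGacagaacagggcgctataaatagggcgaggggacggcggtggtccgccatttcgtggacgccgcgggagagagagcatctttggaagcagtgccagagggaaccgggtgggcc
The Srsf5 promoter held 4 GC boxes and no E-box, and the Srsf3 promoter held 1 E-box and no GC box. Of 170 symbols 130 were matched, giving 137 promoters. A GC box was in 56.2% of these and in 33.1% of all 33469 GRCr8 promoters. It was in 16 of 26 promoters of genes called higher at some time and in 14 of 39 of genes called lower (61.5% and 35.9%). The E-box was in 1 of 26 and 5 of 39 of them (3.85% and 12.8%), beside 8.76% of the 137 and 6.42% of all promoters. Such matches are descriptions of the letters, and binding was not measured.

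The genes listed as kinases of SR proteins and their partners split in both directions, and each of the 7 tested was called at 3 h or 6 h. At 3 h 3 rose and 1 fell, and at 6 h 4 rose and 2 fell. The rises at 6 h include Cdk12 and Cdk13 and the falls include Dyrk1a, kinases with other main targets. With libraries scaled by depth, 1 rose and 2 fell at 3 h, and 3 rose and 2 fell at 6 h. Prpf4b, the kinase of the tri-snRNP, had 111, 99.8 and 95.5 CPM in control, 78.9, 85.4 and 66.7 CPM at 1.5 h, 38.6, 37.3 and 27.9 CPM at 3 h, and 25.8, 25.3 and 25.8 CPM at 6 h. The 4 groups did not overlap, and each later group lay below the earlier. The difference at 1.5 h was -0.41 ± 0.14 and did not pass (adjusted p = 0.144, edgeR). Prpf4b fell by 1.56 ± 0.14 at 3 h (adjusted p = 9.38e-05) and by 1.99 ± 0.15 at 6 h (adjusted p = 2.57e-05), with both calls kept in all 19 alternatives.

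Clk1, a kinase that releases SR proteins from speckles, had 31.6, 28.6 and 27.8 CPM in control, 52.7, 43.0 and 49.1 CPM at 1.5 h, 107, 96.5 and 38.8 CPM at 3 h, and 44.5, 65.8 and 68.2 CPM at 6 h. All treated libraries lay above the controls, but the library standing apart at 3 h was far below the other 2. Clk1 rose by 1.46 ± 0.31 at 3 h (adjusted p = 0.0101, edgeR) and by 1.02 ± 0.31 at 6 h (adjusted p = 0.0317). The difference of 0.72 ± 0.31 at 1.5 h did not pass (adjusted p = 0.220). Its close relative Clk4 had 10.7, 10.0 and 11.4 CPM in control, 9.26, 8.39 and 8.15 CPM at 1.5 h, 23.2, 22.7 and 12.6 CPM at 3 h, and 8.13, 8 and 10.1 CPM at 6 h. Clk4 was thus high at 3 h only, and most so in the 2 libraries that resemble each other. It rose by 0.87 ± 0.23 at 3 h against control (adjusted p = 0.0258) and by 1.18 ± 0.24 against 1.5 h (0.0110), and it fell by 1.16 ± 0.24 at 6 h against 3 h (0.0260). Clk3 had 47.4, 46.8 and 45.0 CPM in control and 67.8, 72.9 and 70.6 CPM at 6 h, a rise of 0.60 ± 0.11 (adjusted p = 0.00264). Single libraries decided several of these calls. The 6 h call of Clk1 was lost without any 1 control or 6 h replicate 2 or 3 (0.0741 to 0.114), and the 3 h call of Clk4 without any 1 control or 3 h replicate 1 or 2 (0.0648 to 0.113). The rise of Clk4 against 1.5 h was lost without 1.5 h replicate 2 or 3 h replicate 1 or 2 (0.0501 to 0.0538), and its fall against 3 h without 3 h replicate 1 or 2 or any 1 replicate of 6 h (0.0526 to 0.0952). With libraries scaled by depth the 3 h call of Clk4 did not pass either.

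Among kinases with other main targets, Cdk13 and Cdk12, which phosphorylate the tail of RNA polymerase II, were called at 6 h. Cdk13 had 123, 136 and 135 CPM at 6 h against 80.7, 82.6 and 102 CPM in control, a rise of 0.57 ± 0.11 (adjusted p = 0.00428, edgeR). Cdk12 rose by 0.42 ± 0.11 (adjusted p = 0.0198) and Dyrk1a, a kinase of many nuclear proteins, fell by 0.50 ± 0.15 (adjusted p = 0.0334). The call of Cdk12 was lost without control replicate 1 or 2 or 6 h replicate 2 or 3 (0.0681 to 0.105), and that of Dyrk1a without any 1 control or 6 h replicate 1 (0.0736 to 0.0870).

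**Figure D2:**
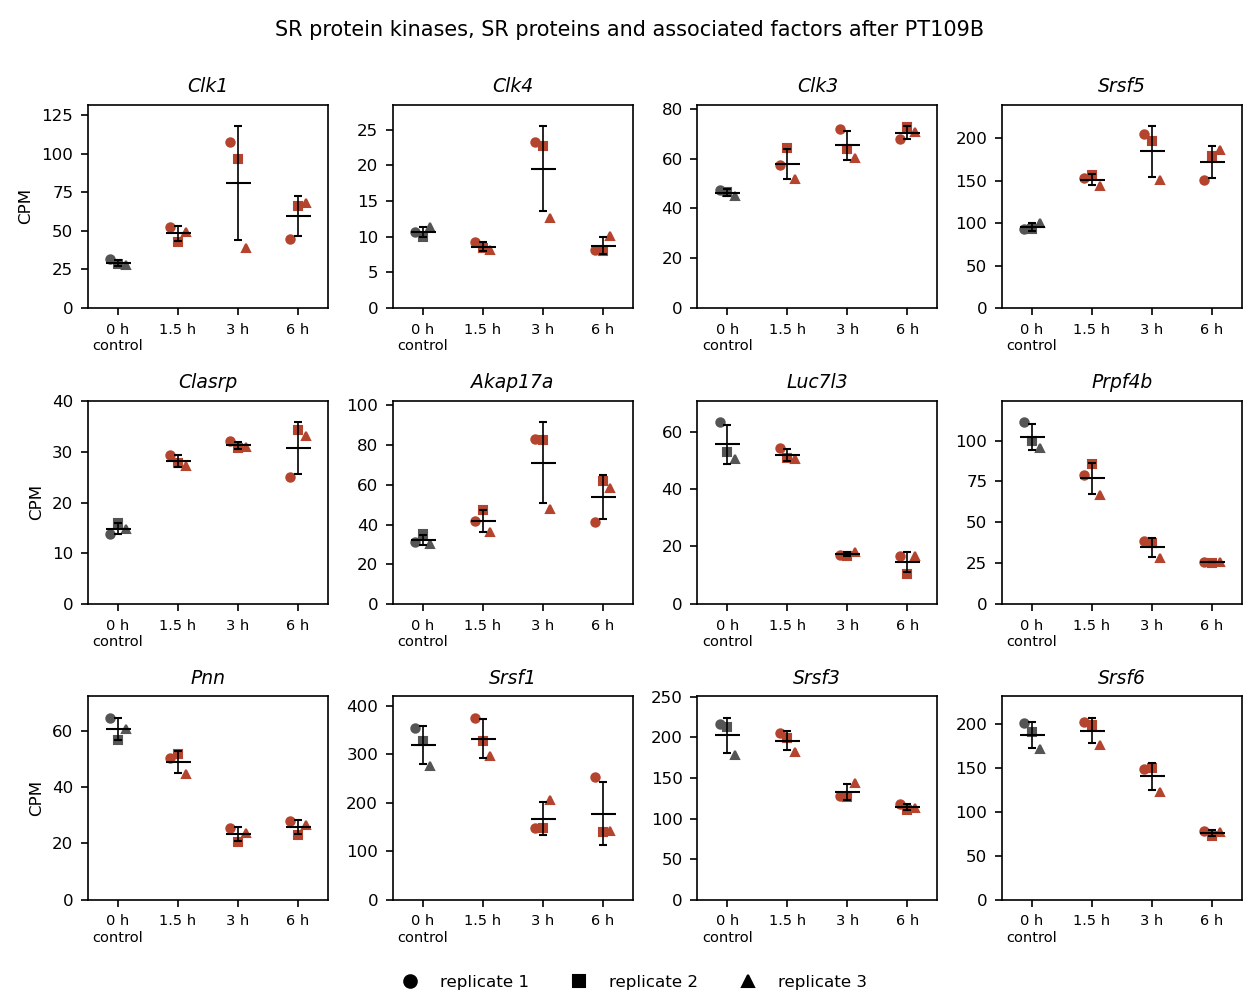
Levels of 12 splicing genes, in CPM (counts relative to scaled library size), by time after PT109B, with a linear axis from 0. Points are single libraries, with a shape for each replicate, and bars are mean ± SD (n = 3). Luc7l3, Prpf4b and Pnn were below control in all libraries at 3 h and 6 h, and Srsf5 and Clasrp were above it in all 9 treated libraries.

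Clasrp, an SR-like protein named for its binding to Clk4, had 13.8, 16.1 and 14.8 CPM in control, 29.5, 27.8 and 27.2 CPM at 1.5 h, 32.1, 30.8 and 31.1 CPM at 3 h, and 25.0, 34.3 and 33.1 CPM at 6 h. It rose by 0.92 ± 0.14 at 1.5 h (adjusted p = 0.00484, edgeR), by 1.07 ± 0.14 at 3 h (0.000626) and by 1.05 ± 0.14 at 6 h (0.000522), and these calls were kept in all 19 alternatives. Akap17a, a speckle protein that anchors protein kinase A, had 31.1, 35.3 and 30.3 CPM in control, 42.0, 47.5 and 36.3 CPM at 1.5 h, 83.2, 82.6 and 47.6 CPM at 3 h, and 41.3, 62.1 and 58.5 CPM at 6 h. No treated library overlapped the controls, and the libraries standing apart at 3 h and 6 h were the lowest of their groups. Akap17a rose by 1.14 ± 0.23 at 3 h (adjusted p = 0.00666) and by 0.74 ± 0.23 at 6 h (adjusted p = 0.0304), the second lost without any 1 control or 6 h replicate 2 or 3 (0.0590 to 0.120). Protein kinase A is known to activate the factor that binds the cAMP response element (CRE), so the Akap17a promoter is shown with its match to TGACGTCA in capitals. It lies on the minus strand at chr12:21428198-21428497 of GRCr8 and the match begins 212 bases before the start.
Akap17a: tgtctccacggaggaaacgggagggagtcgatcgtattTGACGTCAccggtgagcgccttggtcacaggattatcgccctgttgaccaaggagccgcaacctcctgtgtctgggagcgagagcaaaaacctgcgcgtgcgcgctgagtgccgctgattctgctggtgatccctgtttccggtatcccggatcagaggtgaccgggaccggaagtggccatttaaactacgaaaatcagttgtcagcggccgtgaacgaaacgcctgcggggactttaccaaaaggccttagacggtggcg
That element was in 1.83% of all promoters, in 5 of 137 splicing gene promoters (3.65%), in 2 of 26 of genes called higher and in 1 of 39 of genes called lower. The AP-1 motif TGANTCA was in 7.33% of all promoters and in 7 of 137 splicing gene promoters (5.11%). It was in 2 of 26 of genes called higher (7.69%) and in 1 of 39 of genes called lower (2.56%). Protein kinase A activity and binding to these motifs were not measured, and their part in the rise of Akap17a was not tested.

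The U1 particle and its partners choose the start of the intron. Of 5 splicing genes in this role, 2 fell at 3 h (median -0.53) and 3 fell at 6 h (median -0.89), and none was called higher against control, also with 4 other scalings. Of 2 further U1 genes that the rule did not take in, Prpf39 rose by 1.13 ± 0.29 at 3 h (adjusted p = 0.0212, edgeR) and by 1.04 ± 0.29 at 6 h (0.0201), and Luc7l2 fell by 0.77 ± 0.11 and 0.62 ± 0.11 (0.00105 and 0.00228). The calls of Prpf39 were lost with libraries scaled by depth (0.0871 and 0.0785) and without control replicate 1 or 2, and at 3 h also without control replicate 3 or 3 h replicate 2 or 3 (0.0501 to 0.0773), whereas those of Luc7l2 were kept in all 19 alternatives. Luc7l3, a U1 partner that helps choose among splice sites, had 63.3, 53.0 and 50.6 CPM in control, 54.3, 50.9 and 50.3 CPM at 1.5 h, 17.1, 16.7 and 18.1 CPM at 3 h, and 16.5, 10.6 and 16.6 CPM at 6 h. Control and 1.5 h overlapped, and all 3 h and 6 h libraries lay far below both, those standing apart included. Luc7l3 differed by -0.10 ± 0.17 at 1.5 h (adjusted p = 0.748, edgeR), and fell by 1.68 ± 0.17 at 3 h (adjusted p = 0.000150) and by 1.93 ± 0.17 at 6 h (adjusted p = 7.35e-05), calls kept in all 19 alternatives. Its promoter, on the minus strand at chr10:79773380-79773679 of GRCr8, is shown with the matches to the GC box in capitals.
Luc7l3: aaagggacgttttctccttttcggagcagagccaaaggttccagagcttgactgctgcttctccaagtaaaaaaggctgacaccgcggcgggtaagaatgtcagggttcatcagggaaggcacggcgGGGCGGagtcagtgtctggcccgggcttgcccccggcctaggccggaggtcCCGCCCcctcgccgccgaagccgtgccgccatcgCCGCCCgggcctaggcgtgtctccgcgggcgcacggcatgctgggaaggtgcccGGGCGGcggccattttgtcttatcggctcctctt
It held 4 GC boxes, 3 of them before the start, as many in all as the promoter of the rising gene Srsf5. Snrnp70, the U1 protein that SR proteins contact, had 167, 183 and 159.7 CPM in control, 158, 181 and 152 CPM at 1.5 h, 175, 157 and 131 CPM at 3 h, and 63.3, 106 and 106 CPM at 6 h. Only the 6 h libraries lay below the rest, with a fall of 0.89 ± 0.19 (adjusted p = 0.00622). Tia1, which binds uridine-rich introns and draws in the U1 particle, had 7.88, 8.83 and 6.51 CPM at 6 h against 22.7, 17.5 and 16.1 CPM in control, a fall of 1.28 ± 0.23 (adjusted p = 0.00240). Snrpa, which binds U1 RNA, was not called at any time against control.

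**Figure D3:**
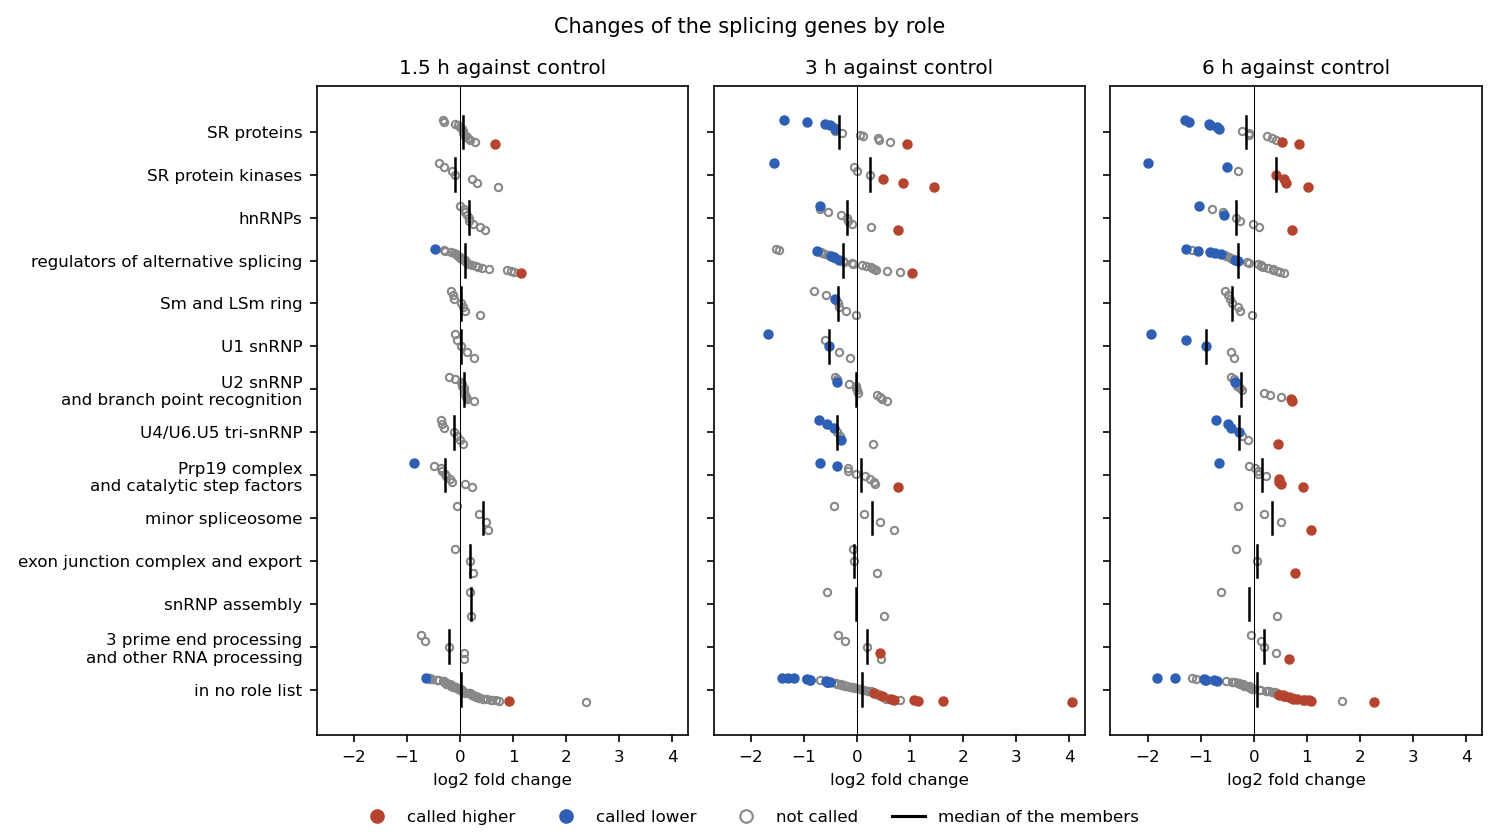
Log2 fold changes of the splicing genes against control at 1.5, 3 and 6 h (horizontal axes), grouped by role (vertical axis). Points are genes, filled where called (red higher, blue lower) and open where not, and black lines are medians of the genes in a role; Tia1 is in 2 roles. The U1 snRNP median was -0.53 at 3 h and -0.89 at 6 h, and the far point at 3 h is Myod1, whose control libraries held at most 3 counts each.

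Calls among the Sm and LSm proteins and the branch point factors depended on the scaling. Scaled by depth, 6 of 12 branch point and U2 genes fell at 3 h, and 2 rose and 6 fell at 6 h, while 2 of 7 Sm and LSm genes fell at 3 h and 4 at 6 h. With the scaling used throughout, fewer were called. In the ring of Sm and LSm proteins, the shared core of the particles, Snrpd1 alone of 7 was called, at 3 h (-0.41 ± 0.13, adjusted p = 0.0463, edgeR). That call was lost without control replicate 1 or 2 or 3 h replicate 1 or 2 (0.0571 to 0.178). Of 12 branch point and U2 genes, U2af1, which reads the end of the intron, was lower at 3 h and 6 h, while Sf1 and Sf3a2 were higher at 6 h. Sf1, which binds the branch point first, had 240.3, 259.6 and 241 CPM in control, 264, 272 and 224 CPM at 1.5 h, 343, 348 and 274 CPM at 3 h, and 351, 446 and 424 CPM at 6 h. It rose by 0.72 ± 0.14 at 6 h (adjusted p = 0.00367), kept in all 19 alternatives. Sf3a2, a subunit that anchors the U2 particle, rose by 0.69 ± 0.19 (adjusted p = 0.0192), lost without control replicate 1 or 3 or 6 h replicate 2 or 3 (0.0564 to 0.0834). The falls of U2af1 were small, 0.38 ± 0.12 at 3 h (0.0446) and 0.35 ± 0.12 at 6 h (0.0447), and both were lost without control replicate 1 or 2 or replicate 1 or 2 of the treated group, and the 3 h call also without control replicate 3 (0.0507 to 0.165). Of 7 tri-snRNP genes, 4 fell at 3 h, namely Prpf38b (-0.71), Prpf18 (-0.56), Sart3 (-0.43) and the helicase Ddx23 (-0.30). At 6 h Prpf38b (-0.70), Prpf31 (-0.49), Prpf18 (-0.44) and Ddx23 (-0.28) were lower and Sart1 (0.46) higher. The calls of Prpf38b and Ddx23 at both times, of Sart3 and of Sart1 were lost without any 1 control and without replicate 1, 2 or 3 of the treated group in part of them (adjusted p of 0.0515 to 0.189 over these genes). The 6 h call of Prpf31 was lost without control replicate 1 or 2 (0.0583 to 0.0599), and that of Prpf18 without control replicate 1 or 3 or 6 h replicate 3 (0.0530 to 0.0686).

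The Prp19 complex and later factors carry the spliceosome through its catalytic steps. Of 10 tested, 1 fell at 1.5 h (median -0.28), 1 rose and 2 fell at 3 h (median 0.07), and 4 rose and 1 fell at 6 h (median 0.16). Between 1.5 h and 3 h 5 of the 10 rose and none was called lower, with a median of 0.44 beside 0.03 over all genes tested. Of all genes 12.1% were called higher there. With the replicate number as a block 4 rose, without Rbm22 (adjusted p = 0.0643), beside 8.39% of all genes. With libraries scaled by depth 2 rose in that interval (median 0.22), beside 6.47% of all genes. Scaled so, 1 rose and 4 fell at 3 h against control (median -0.21) and 1 rose and 1 fell at 6 h (median -0.05). Rbm22, which contacts the U6 RNA in the catalytic core, had 100.1, 102 and 97.4 CPM in control, 113, 101 and 107 CPM at 1.5 h, 198, 186 and 128 CPM at 3 h, and 135, 219.6 and 213 CPM at 6 h. The libraries standing apart showed the smaller shift. Rbm22 rose by 0.77 ± 0.20 at 3 h (adjusted p = 0.0219, edgeR) and by 0.92 ± 0.20 at 6 h (adjusted p = 0.00612). Yju2, which promotes the initial catalytic step, had 34.2, 30.7 and 29.0 CPM in control, 23.8, 22.8 and 19.9 CPM at 1.5 h, 33.8, 30.7 and 28.7 CPM at 3 h, and 43.0, 42.9 and 48.0 CPM at 6 h. It was lowest in all libraries at 1.5 h and highest at 6 h, with a rise of 0.51 ± 0.12 at 6 h against control (adjusted p = 0.0110). Ccdc130, which is related to Yju2, rose by 0.70 ± 0.17 at 3 h (0.0164) and by 0.96 ± 0.17 at 6 h (0.00205). The 3 h calls of Rbm22 and Ccdc130 were lost without any 1 control or 3 h replicate 1 or 2 (0.0502 to 0.0850), and the 6 h call of Yju2 without 6 h replicate 3 (0.0650). With libraries scaled by depth, the 3 h call of Ccdc130 and the 6 h call of Yju2 did not pass.

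Factors outside these particles gave single calls. Scnm1, a protein of the minor spliceosome, had 22.4, 30.1 and 26.3 CPM at 6 h against 11.1, 13.6 and 12.4 CPM in control, a rise of 1.08 ± 0.21 (adjusted p = 0.00337, edgeR). Usb1, the nuclease that trims U6 RNA, had 24.7, 26.3 and 24.9 CPM at 6 h against 13.4, 12.7 and 14.0 CPM in control and rose by 0.92 ± 0.17 (adjusted p = 0.00325). Mettl3, the catalytic subunit of the adenosine methyltransferase of mRNA, rose by 0.66 ± 0.12 at 6 h (adjusted p = 0.00247). These 3 calls were kept in all 19 alternatives. Casc3, a core protein of the exon junction complex, rose by 0.77 ± 0.20 at 6 h (adjusted p = 0.0172), lost without control replicate 2 or 3 or 6 h replicate 2 or 3 (0.0564 to 0.0737). Its partners Magoh and Rbm8a were not called at any time.

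Among 9 hnRNPs, 1 rose and 1 fell at 3 h, and 1 rose and 2 fell at 6 h, whereas with libraries scaled by depth none was called higher and 2 fell at 3 h, and 1 rose and 3 fell at 6 h. Hnrnpm had 295, 299 and 286 CPM in control, 314, 330.0 and 282 CPM at 1.5 h, 174, 168 and 200.1 CPM at 3 h, and 176, 119 and 134 CPM at 6 h. It fell by 0.70 ± 0.15 at 3 h (adjusted p = 0.00897, edgeR) and by 1.04 ± 0.15 at 6 h (adjusted p = 0.000737). Hnrnpa2b1, at high level in these cells, had 520.2, 484 and 493 CPM at 6 h against 765, 743 and 703 CPM in control and fell by 0.56 ± 0.12 (adjusted p = 0.00687). Hnrnph3 had 40.5, 43.0 and 37.7 CPM at 3 h against 23.6, 26.4 and 20.9 CPM in control and rose by 0.77 ± 0.19 (adjusted p = 0.0197), a call lost without control replicate 1 or 3 or 3 h replicate 1 or 2 (0.0590 to 0.0733) and with libraries scaled by depth. Hnrnpa1, which opposes Srsf1 in splice site choice, was not called. It had 562, 583 and 483 CPM in control, 594, 628 and 554 CPM at 1.5 h, 298, 265 and 557 CPM at 3 h, and 499.7, 287 and 299.8 CPM at 6 h. In that gene the libraries standing apart lay at the control level and the other 2 of each group well below it, as in Hnrnpa3. Rbmx, an hnRNP relative encoded on the X chromosome in mammals, had 30.6, 18.5 and 15.2 CPM at 6 h against 61.5, 65.8 and 52.4 CPM in control and fell by 1.48 ± 0.25 (adjusted p = 0.00177).

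Regulators of alternative splicing were called mostly lower. Of 25 tested, 1 rose and 4 fell at 3 h (median -0.27), and none was called higher and 7 fell at 6 h (median -0.29), and falls outnumbered rises with 4 other scalings too. Sfpq, a protein of paraspeckles, had 315, 313 and 308 CPM in control, 325, 356 and 281 CPM at 1.5 h, 242, 243 and 205 CPM at 3 h, and 156, 153 and 145 CPM at 6 h. It fell by 0.44 ± 0.12 at 3 h (adjusted p = 0.0245, edgeR) and by 1.05 ± 0.12 at 6 h (adjusted p = 0.000230), with the 3 h call lost without any 1 control (0.0641 to 0.0807). Qk had 557, 503 and 581 CPM in control, 680.3, 663 and 566 CPM at 1.5 h, 455, 426 and 481 CPM at 3 h, and 369, 275 and 286 CPM at 6 h, and fell by 0.82 ± 0.14 at 6 h (adjusted p = 0.00224). Tardbp (TDP-43), which keeps cryptic exons out of mRNA, had 171, 126 and 129 CPM at 6 h against 252, 241 and 211 CPM in control and fell by 0.73 ± 0.15 (adjusted p = 0.00489). Mbnl1 (-0.61), Rbm10 (-0.36) and Rbm39 (-0.29) were also called lower at 6 h. The calls of Rbm39 and Mbnl1 were lost without any 1 control or 6 h replicate 2 or 3 (0.0609 to 0.120), and that of Rbm10 without control replicate 1 or 2 (0.0685 to 0.0718). Rbfox2 was not called at any time against control.

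Rbm24, known for muscle splicing, was the regulator that rose. It had 5.65, 6.64 and 8.36 CPM in control, 15.8, 16.2 and 13.6 CPM at 1.5 h, 14.3, 11.3 and 16.7 CPM at 3 h, and 8.13, 10.6 and 12 CPM at 6 h. The rise was 1.14 ± 0.23 at 1.5 h (adjusted p = 0.0233, edgeR) and 1.03 ± 0.23 at 3 h (adjusted p = 0.0114), and at 6 h the libraries overlapped those of control. The 1.5 h call was lost without control replicate 1 or 2 or 1.5 h replicate 1 or 2 (0.0938 to 0.120), and the 3 h call without control replicate 1 (0.0563). Rbm11, a relative known from brain and testis, had 0.770, 0.928 and 1.58 CPM in control, 1.61, 1.10 and 1.81 CPM at 1.5 h, 4.03, 2.97 and 3.11 CPM at 3 h, and 4.54, 4.52 and 6.74 CPM at 6 h. It rose by 2.26 ± 0.38 at 6 h (adjusted p = 0.00187), on 53, 44 and 59 counts at 6 h against 9, 13 and 18 in control. Myod1 was called at 3 h (adjusted p = 0.0140) on 41, 40 and 4 counts at 3 h against 3, 1 and 2 in control. Its libraries replicate 1 and 2 at 3 h were high and replicate 3 was near control, and the call was lost without control replicate 2 or 3 or 3 h replicate 2 (0.0524 to 0.0626). Elavl4, a neuronal member, had 1.08, 1.21 and 2.57 CPM at 3 h against 11.2, 12.2 and 2.92 CPM at 1.5 h, so that 2 libraries at 1.5 h were high and the library standing apart was not.

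Among genes in none of the role lists, 8 rose and 10 fell at 3 h (median 0.10 over 62) and 13 rose and 7 fell at 6 h (median 0.06). Beside them, 13.5% of all genes were called higher and 7.94% lower at 3 h, and 18.7% and 11.8% at 6 h. The counts were 4 risen and 17 fallen at 3 h and 10 risen and 11 fallen at 6 h with libraries scaled by depth. Rbm25, a U1 partner that acts on apoptosis genes, had 143, 133 and 139.8 CPM in control, 109, 101 and 96.9 CPM at 1.5 h, 88.5, 75.6 and 60.3 CPM at 3 h, and 77.7, 81.6 and 88.3 CPM at 6 h. It fell by 0.89 ± 0.13 at 3 h (adjusted p = 0.00140, edgeR) and by 0.75 ± 0.13 at 6 h (adjusted p = 0.00236), and no treated library overlapped the controls. Slc38a2, the amino acid transporter, had 117, 82.5 and 79.1 CPM at 6 h against 339, 347 and 295 CPM in control and fell by 1.82 ± 0.30 (adjusted p = 0.00165). Cpne1, a membrane-binding protein, had 91.2, 153 and 136 CPM at 6 h against 57.0, 61.0 and 62.1 CPM in control and rose by 1.08 ± 0.22 (adjusted p = 0.00459). These calls were kept in all 19 alternatives. Fmr1, a translation regulator, fell by 0.93 ± 0.26 at 6 h (adjusted p = 0.0215), lost without control replicate 1 or 3 or 6 h replicate 2 or 3 (0.05 to 0.0728). The gene listed as RPS13 is described in the table as similar to ribosomal protein S13, so near copies may share its counts. It rose by 0.81 ± 0.21 at 6 h (0.0174), lost without control replicate 1 or 3 or 6 h replicate 3 (0.0609 to 0.0809) and with libraries scaled by depth.

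A few genes were low early and not later. This grouping was made after their values were seen. Cwc22, which loads the exon junction complex onto the spliceosome, had 39.0, 42.4 and 37.8 CPM in control, 20.4, 24.7 and 20.5 CPM at 1.5 h, 29.1, 30.0 and 33.3 CPM at 3 h, and 41.2, 42.4 and 37.9 CPM at 6 h. The 1.5 h libraries lay lowest, those of 3 h between, and those of 6 h at the control level. Cwc22 fell by 0.86 ± 0.12 at 1.5 h (adjusted p = 0.00296, edgeR), kept in all 19 alternatives, and differed by 0.03 ± 0.12 at 6 h (adjusted p = 0.881). Rbm5, which regulates exons of apoptosis genes, had 96.8, 103 and 98 CPM in control, 71.5, 71.0 and 73.5 CPM at 1.5 h, 57.7, 54.1 and 64.7 CPM at 3 h, and 89.6, 91.0 and 97.6 CPM at 6 h. It fell by 0.46 ± 0.10 at 1.5 h (0.0260) and by 0.76 ± 0.10 at 3 h (0.000513), and it rose by 0.66 ± 0.10 at 6 h against 3 h (0.00926). Nsrp1, a speckle regulator, had 37.8, 34.3 and 39.4 CPM in control, 21.6, 24.3 and 25.6 CPM at 1.5 h, 26.2, 23.1 and 26.3 CPM at 3 h, and 37.2, 27.2 and 35.2 CPM at 6 h, and fell by 0.64 ± 0.14 at 1.5 h (0.0377). With the replicate block the adjusted p at 1.5 h was 0.0516 for Nsrp1 and 0.0510 for Rbm5. Both 1.5 h calls were also lost without any 1 control or 1.5 h replicate 1 or 2 (0.0880 to 0.167), and the rise of Rbm5 against 3 h without 3 h replicate 1 or 2 or 6 h replicate 3 (0.0595 to 0.0664).

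**Figure D4:**
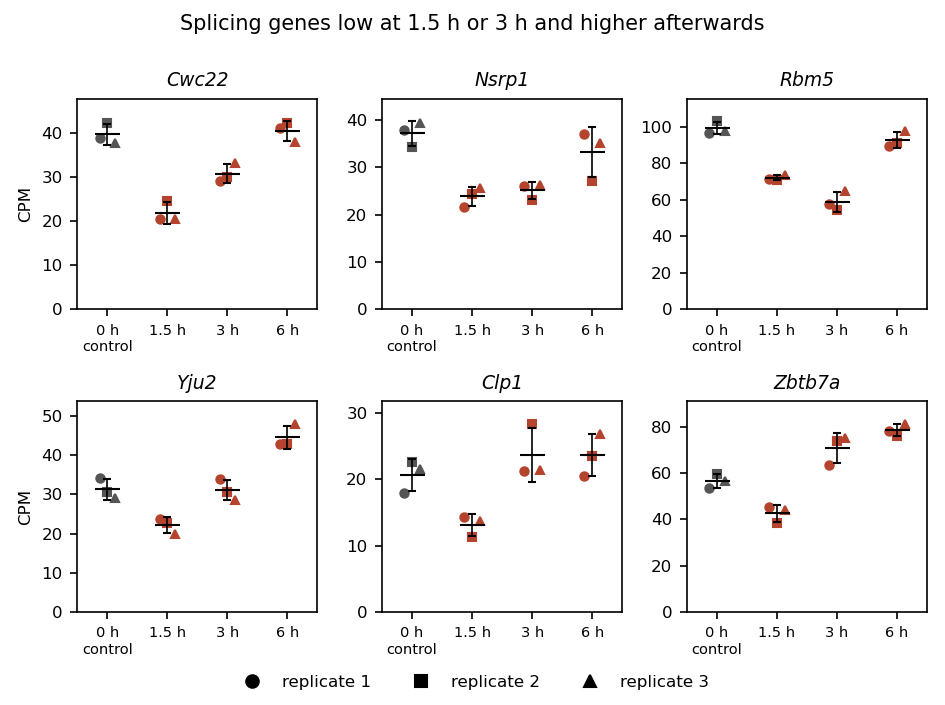
Levels of 6 splicing genes that were lower at 1.5 h or 3 h than at a later time, in CPM by time after PT109B, with a linear axis from 0. Against control, Cwc22, Nsrp1 and Rbm5 were called lower at 1.5 h, and Yju2, Clp1 and Zbtb7a were not called lower at 1.5 h or 3 h. Points are single libraries, with a shape for each replicate, and bars are mean ± SD (n = 3). Cwc22 had 20.4 to 24.7 CPM at 1.5 h, 37.9 to 42.4 CPM at 6 h and 37.8 to 42.4 CPM in control.

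Between times, 14 splicing genes rose and 30 fell at 3 h against 1.5 h, or 8.19% and 17.5%, beside 12.1% and 8.23% of all genes (20.3% either way). With the replicate number as a block, 12 rose and 19 fell, beside 8.39% and 4.71% of all genes, and 30 of the 44 calls were kept. Zbtb7a, a transcription repressor, had 63.5, 74.0 and 75.5 CPM at 3 h against 45.5, 38.6 and 44.0 CPM at 1.5 h and rose by 0.73 ± 0.11 (adjusted p = 0.00321, edgeR). Clp1, a kinase of RNA ends that acts in tRNA splicing, had 21.3, 28.4 and 21.4 CPM at 3 h against 14.4, 11.3 and 13.7 CPM at 1.5 h and rose by 0.85 ± 0.18 (adjusted p = 0.0129). Luc7l3 fell by 1.58 ± 0.17 and Pnn by 1.07 ± 0.13 in that interval, both kept in all 19 alternatives. The call of Clp1 was lost without 1.5 h replicate 2 or 3 h replicate 2 (0.0618 to 0.0717). At 6 h against 3 h, 3 rose and 4 fell (4.09%, beside 4.05% of all genes, 2.33% higher and 1.72% lower), the falls being those of Clk4, Srsf6, Thrap3 and Sfpq and the rises those of Rbm5, Yju2 and Cdk12. A fit of these 2 groups alone called no splicing gene between 3 h and 6 h. It called only 2 higher and 5 lower of all 9151 genes it tested. In the fit of all libraries 32 splicing genes had an unadjusted p below 0.05 there, a share not counted over all genes.

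Listed splicing and RNA processing genes that the rule did not take in were read in the same way. Of 54 tested, none rose and 2 fell at 1.5 h (median -0.08), 3 rose and 10 fell at 3 h (median -0.17), and 13 rose and 16 fell at 6 h (median -0.24). At 6 h, 4 of 6 genes of mRNA export and nonsense-mediated decay were called lower, against 11.8% of all genes tested, among them Upf2 (-1.20) and Thoc2 (-1.30), a subunit of the export complex. Of 9 genes of snRNP assembly 6 were called higher at 6 h and none lower (median 0.55), where 18.7% of all genes were called higher, but with libraries scaled by depth 4 were higher and 3 lower. Neither of the 2 snRNP assembly genes among the 171 was called (median -0.09). The 6 include Coil (0.82), the scaffold of Cajal bodies, and Smn1 (0.59), which loads Sm proteins onto snRNAs. The call of Smn1 was lost without control replicate 3 or 6 h replicate 2 (adjusted p of 0.0583 to 0.0737, edgeR) and with libraries scaled by depth, and the other 3 were kept in all 19 alternatives.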

How the data were processed

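Libraries were grouped by the labels into control and 1.5, 3 and 6 h of 10 µM PT109B. RNA was isolated with TRIzol and made into libraries with the NEBNext Ultra kit, per the labels' protocols, which do not state whether strand was kept. For each gene and library the authors deposited an estimated count and an FPKM value, per the file headers. The submitters' processing notes name StringTie 2.2.1. No aligner, genome build or annotation is given in the sources used here. Some 9.49% of the deposited count values were not whole numbers and were rounded. The table holds part of the rat genes, so scaling, backgrounds and adjusted p-values refer to it alone.

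The test was that of edgeR 4.0.16 in R 4.3.3 (robust quasi-likelihood test, TMM scaling, filterByExpr, prior count of 0.125) in 1 fit of 12 libraries with group as the only term, and adjusted by Benjamini-Hochberg over 9491 genes. The filter removed 230 genes and no splicing gene. CPM are counts on TMM-scaled library sizes, and each SE is the log2 fold change divided by the root of its F value. The code was tested on simulated counts.

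The splicing genes, role lists and tests were chosen with earlier results of these data known. Genes named are the 12 risen and 12 fallen with the largest called change per time (with a mean of 2 CPM or more in the group that is higher), up to 4 called and 2 uncalled genes with the highest level per role, and 6 each way between times. Srsf2, Srsf4, Prpf18, Sart3, Mbnl1, Rbm10, Upf2, Thoc2, Coil, Smn1, Prpf39 and Luc7l2 were named after their values were seen. A few genes that the rule takes in are not reported here. Promoters of GRCr8 were matched by symbol, since the table's build is not known.

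Alternatives were other scalings and filters, a block for the replicate number, fits of 2 groups, a non-robust fit, DESeq2 1.42.0, limma 3.58.1 on log2 of the deposited FPKM plus 1 or 0.1, and leaving out each library. Leaving out the 3 libraries that stand apart and scaling by depth from count and FPKM were chosen after seeing the data. Replicate numbers come from the labels, which do not say what they mark. Deviations of libraries with the same number correlated at 0.200 to 0.451 between control and 1.5 h, over 0.1 in all 3 pairs. Between 1.5 h and 3 h they correlated at 0.166 to 0.224, also over 0.1. Replicates 1 and 2 reached like values across numbers, such as 0.211 for control replicate 1 and 1.5 h replicate 2. For 1.5 h replicate 1 and 3 h replicate 2 it was 0.202. Replicate 3 correlated negatively with replicates 1 and 2 of the other group. The values therefore do not show that the numbers pair these groups.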

Additional observations from a re-analysis of the deposited data

Results flagged for a closer look

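The comparisons between times test whether the change against control differs from one time to the next, and the largest such differences are given as log2 fold changes from edgeR. At 3 h against 1.5 h, Clk4 (1.18), Clp1 (0.85), Ccdc130 (0.83), Akap17a (0.76), Zbtb7a (0.73) and Cwc25 (0.69) were higher. Elavl4 (-2.42), Luc7l3 (-1.58), Prpf4b (-1.15), Pnn (-1.07), Srsf1 (-0.99) and Cwf19l2 (-0.98) were lower. In a fit of these 2 groups alone all but Luc7l3 and Pnn lost the call. That fit called few genes of any kind, 63 higher and 13 lower of 9240. Elavl4 stood at 11.2 and 12.2 CPM in the 1.5 h libraries that resemble each other and at 2.92 CPM in the library that stands apart, and the summed level of microglial markers, 423, 412 and 4198 CPM, split the same libraries. The part of the cell mixture in this difference was not tested.

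At 6 h against 3 h, Rbm5 (0.66), Yju2 (0.52) and Cdk12 (0.48) were higher, and Clk4 (-1.16), Srsf6 (-0.89), Thrap3 (-0.76) and Sfpq (-0.60) were lower. All 7 calls were lost in a fit of the 2 groups alone, which called only 2 higher and 5 lower of 9151 genes. Beside them, the summed level of mitosis genes was 1547, 182 and 203 CPM at 6 h and 235, 206 and 1605 CPM at 3 h, and its part in these differences was not tested.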

How the results depend on the processing

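The 156 named calls were each read in the alternatives, which gave 2963 pairs of a call and an alternative. No direction reversed in these pairs, and 2400 of them kept the call. Of the 156 calls 52 passed in every alternative. The alternatives reuse the libraries that chose these calls, so they describe the calls and are not independent support. Below, counts are out of 171 splicing genes, and percentages in brackets are shares of all genes in the same setting. At 1.5 h against control 6 were higher with DESeq2 (5.29%) or a fit of the 2 groups (1.84%). Without the 3 libraries that stand apart 51 were higher (28.7%) and 28 lower (30.5%). Lower were 7 by library size (2.28%) or depth scaling (2.29%). By upper quartile (1.02%), by the replicate block (0.674%) or in a fit of the 2 groups (0.729%) 1 was lower. DESeq2 gave 8 lower (2.82%) and limma 6 at either pseudocount (2.37% and 2.23%). At 3 h 8 were higher by library size (6.85%) or depth scaling (7.13%), 25 with DESeq2 (17.4%) and 59 without the 3 libraries (31.4%). Limma gave 10 and 9 higher on FPKM plus 1 and plus 0.1 (7.26% and 7.28%). Those lower were 66 by library size (19.9%), 59 by depth scaling (18.1%) and 74 without the 3 libraries (39.6%). Limma gave 68 lower at either pseudocount (22.3% and 21.4%). At 6 h 19 were higher by library size and 58 without the 3 libraries, and 51, 53, 52 and 79 were lower by library size, with limma at both pseudocounts and without the 3 libraries. For 3 h against 1.5 h the higher were 7 by library size (5.93%), 0 in a fit of the 2 groups (0.682%) and 9 by depth scaling (6.47%). Limma gave 8 higher at either pseudocount (7.53% and 7.46%), and 45 were higher without the 3 libraries (35.2%). The lower were 46 by library size (15.6%), 2 in a fit of the 2 groups (0.141%) and 19 under the block (4.71%). Limma gave 48 and 47 lower (16.3% and 15.4%), and 73 were lower without the 3 libraries (34.7%). For 6 h against 3 h 5 were higher by library size, depth scaling or limma (3.79% to 4.24%) and 1 under the block (0.906%). A fit of the 2 groups gave 0 higher (0.0219%), and 19 were higher without the 3 libraries (15.4%). Lower were 2 under the block (0.769%) and 0 in a fit of the 2 groups (0.0546%). DESeq2 gave 7 lower (3.77%), and 33 were lower without the 3 libraries (18.7%). The cause of these shifts was not tested, but scaling by library size or depth moves all genes together.

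Leaving out 1 library at a time gave 1 to 16 higher and 1 to 11 lower at 1.5 h, 6 to 39 and 11 to 51 at 3 h, 14 to 41 and 19 to 47 at 6 h, 1 to 32 and 5 to 49 at 3 h against 1.5 h, and 0 to 3 and 1 to 13 at 6 h against 3 h. The highest counts against control came without the library that stands apart, where the shares of all genes rose too. Without 1.5 h replicate 3, 9.36% of splicing genes were higher and 6.43% lower at 1.5 h, beside 13.4% and 16.7% of all genes. Without 3 h replicate 3 the shares at 3 h were 22.8% and 29.8%, beside 19.5% and 19.2%. At 3 h against 1.5 h they were then 18.7% and 28.7%, beside 16.5% and 19.8%. At 6 h against 3 h they were 0.585% and 7.60%, beside 4.05% and 4.20%. Without 6 h replicate 1 the shares at 6 h against control were 24.0% and 27.5%, beside 22.8% and 17.7%. Between control and 3 h, control and 6 h, and 3 h and 6 h same-numbered libraries did not deviate together in every pair (-0.0267 to 0.0353, -0.0240 to 0.00878 and -0.657 to 0.599). Across numbers, 3 h replicate 3 and 6 h replicate 1 correlated at 0.794, and a block by number does not join them. The replicate block gave 12 higher and 21 lower at 3 h, beside 10.6% and 6.33% of all genes. At 6 h it gave 29 and 31, beside 17.0% and 10.4%, and at 6 h against 3 h 1 and 2, beside 0.906% and 0.769%. The call of the lowest gene, Myod1, rests on 4 to 41 counts at 3 h.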
